A study of Mus musculus with 25 samples.

Results

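The 32 genes described here belong to the amino acid and stress response that is run by the transcription factor ATF4. They are a list of gene names from the pathway, with no cut on level or change, and were found as 32 of the 48440 genes in the count table. By role they were 7 transcription factors, 5 feedback and effector genes, 6 enzymes of amino acid synthesis, 3 enzymes of mitochondrial one-carbon metabolism, 8 amino acid transporters and 3 genes for an ER membrane protein, a lipoprotein receptor and a secreted hormone. The list was chosen with earlier results of these data known, so shares of members beside those of all genes are a description.

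Bulk 3′ RNA-seq with molecular barcodes was made from mouse E14 embryonic stem (ES) cells, a feeder-independent line of blastocyst origin grown in serum. Unedited E14 cells were treated for 48 h with 0, 2.5, 5, 7.5 or 10 µM CHIR99021, an inhibitor of the kinase GSK3 that stops β-catenin from being marked for degradation, with 2 libraries at each dose. The other 15 libraries came from clones without inhibitor of the same line that carried a heterozygous missense change in *Ctnnb1*, the β-catenin gene, put in by replacing a selection cassette at that locus. Each of these libraries was 1 clone, and the 11 mutations hit the phosphorylated residues at codon 37 (S37A, S37C, S37F in 2 clones, S37Y), codon 41 (T41A and T41I in 2 clones each, T41N, T41S) and codon 45 (S45C, S45F in 2 clones, S45P). The labels do not say whether libraries of 1 dose came from separate cultures, so p-values measure the spread between these libraries, which may be technical.

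Cells short of amino acids, or with misfolded protein in the ER, switch on kinases that phosphorylate the initiation factor eIF2. Translation then slows in general, while ATF4 protein is made in larger amount and binds, usually with a C/EBP partner, to a composite element in its target genes. The targets restore amino acid supply through synthesis and uptake, slow the response through feedback, and favour cell death under lasting stress. ATF4 is controlled largely at translation, so its mRNA is not a measure of its activity.

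The composite element that these partners bind has the core TGATGNAA. Within the 250 bases before RefSeq transcription starts (GRCm38.p6), this core stood on either strand in 3.45% of 32851 promoters. Promoters were found for 28 of the 32 members, and 8 of these members held the core (*Asns*, *Atf3*, *Chac1*, *Herpud1*, *Nupr1*, *Pycr1*, *Slc7a11* and *Vldlr*). The ER stress response element (CCAAT and CCACG spaced by 9 bases) was in 0.113% of all promoters and in 0 members. The TCF/LEF core CTTTGAT, the site of the factors that β-catenin works with, was in 3.21% of all promoters and in 1 member, *Slc7a1*. A match of letters is a description and not a tested binding site. The following stretches are shown because *Asns*, *Pycr1* and *Nupr1* carried the changes described below, *Chac1* marked an axis of variation among clones, and *Slc7a1* was the member with the TCF/LEF letters. They are given 5′ to 3′ on the strand of the gene, with the matched letters in capitals (a match on the other strand is shown as its reverse complement).
*Asns*, chr6:7693210-7693257, minus strand, match 23 to 16 bases before the start: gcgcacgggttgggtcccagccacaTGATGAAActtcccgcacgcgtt
*Pycr1*, chr11:120643819-120643876, minus strand, match 103 to 96 bases before the start: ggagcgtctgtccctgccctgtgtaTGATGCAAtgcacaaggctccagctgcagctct
*Nupr1*, chr7:126625548-126625605, minus strand, match 110 to 103 bases before the start: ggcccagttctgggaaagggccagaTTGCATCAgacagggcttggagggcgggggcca
*Chac1*, chr2:119351024-119351081, plus strand, match 193 to 186 bases before the start: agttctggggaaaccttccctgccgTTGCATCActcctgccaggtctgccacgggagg
*Slc7a1*, chr5:148392832-148392888, minus strand, match 48 to 42 bases before the start: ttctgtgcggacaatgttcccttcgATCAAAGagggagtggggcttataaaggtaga

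Libraries held 306157 to 2083398 counts, and levels are given as CPM, the count of a gene scaled to a common library total. A count of 0 allows up to 3 counts, or 1.44 to 9.80 CPM depending on the library, and this covers counting error only. The shallowest library was replicate 1 at 10 µM. Among the treated and untreated unedited cells, 4 libraries (replicate 2 without inhibitor and the first replicates of 2.5, 5 and 10 µM) had a mitochondrial share of 0.485 to 0.562% and the other 6 had 0.986 to 1.46%, so this split crossed the doses. The clones had 1.53 to 2.52%. *Axin2*, a direct target of β-catenin, was at 15.8 and 13.8 CPM without inhibitor and at 98.0 and 134 CPM at 10 µM (adjusted p = 1.26e-07 for the trend). The summed level of 8 ES cell markers was 4432 to 4476 CPM at 0 µM and 3388 to 3655 CPM at 10 µM. In the dose trend 5 of these were lower and 1 higher, beside 6.63% and 5.89% of all genes tested. *Klf4* went from 264 and 277 CPM to 480 and 477 CPM, and *Tdgf1* from 1862 and 1843 CPM to 1307 and 1246 CPM. The sum of 5 mesendoderm markers went from 15.8 to 20.2 CPM to 130 to 154 CPM. Most of that rise was *T*, from 9.78 and 10.6 CPM to 124 and 102 CPM. *Eomes* was at 4.35 and 7.44 CPM and then at 9.80 and 9.79 CPM. The part of these changes in the results below was not tested, and in bulk RNA, fewer cells of a type and less RNA per cell cannot be told apart.

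**Figure D1:**
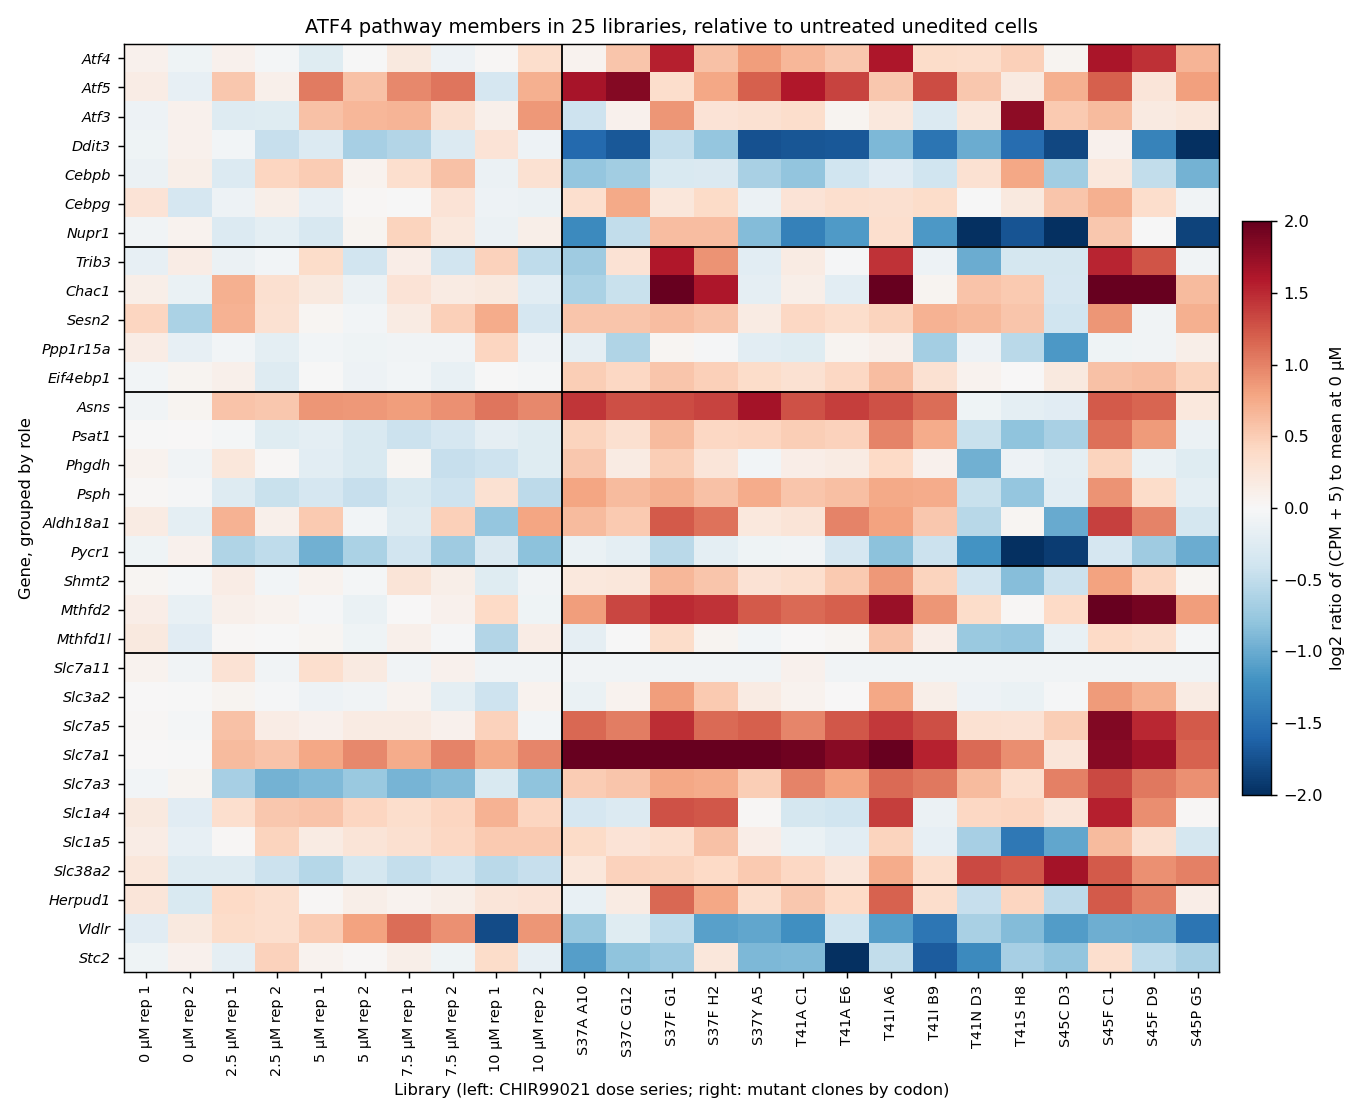
Heat map of the 32 members (rows, ordered by role) in the 25 libraries (columns, with the dose series first and the clones after it). Colour is the log2 ratio of each level, in CPM plus 5, to that gene's mean in the 2 untreated libraries of unedited cells. *Asns* and *Slc7a1* rise across the doses, and *Chac1*, *Trib3* and *Slc1a4* are highest in the same 5 clones.

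The dose series asked which transcripts followed the dose of the GSK3 inhibitor in unedited cells. *Asns*, the enzyme that makes asparagine, rose with dose, and so did the transporters *Slc7a1* and *Slc1a5*, while the transporters *Slc7a3* and *Slc38a2* and the proline enzyme *Pycr1* fell. Of the 29 members tested, 3 were higher and 3 lower with dose, beside 12.5% of all 10033 genes tested that changed, 5.89% higher and 6.63% lower (edgeR's quasi-likelihood test, Benjamini-Hochberg adjusted p under 0.05). The median fitted change was -0.0012 (log2 per µM) over the members tested and 0.0008 over all genes tested. *Atf3*, *Chac1* and *Slc7a11* were too low to be tested.

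*Asns* (ENSMUSG00000029752.12, chr6:7675169-7693254) was at 372 and 406 CPM at 0 µM, 579 and 568 CPM at 2.5 µM, 722 and 710.4 CPM at 5 µM, 699 and 742 CPM at 7.5 µM, and 823 and 766 CPM at 10 µM. Both untreated libraries lay below every treated one, most of the step was made by 5 µM, and the 5 and 7.5 µM levels overlapped. Its fitted change was 0.95 ± 0.14 (log2 per 10 µM, SE, n = 10 libraries, adjusted p = 2.05e-05). At 2.5 µM alone it was already higher than without inhibitor by 0.59 ± 0.13 (log2, adjusted p = 0.0044), and at 10 µM by 1.05 ± 0.13 (adjusted p = 1.07e-07).

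*Slc7a1* (ENSMUSG00000041313.14, chr5:148327410-148399904) encodes CAT1, an importer of arginine and lysine. Its levels were 46.7 and 45.7 CPM at 0 µM, 74.7 and 70.9 CPM at 2.5 µM, 82.3 and 94.6 CPM at 5 µM, 80.5 and 96.8 CPM at 7.5 µM, and 81.7 and 95.6 CPM at 10 µM. Every treated library was above both untreated ones, and the levels at 5, 7.5 and 10 µM overlapped. The change was 0.90 ± 0.19 (log2 per 10 µM, adjusted p = 0.00143). *Slc1a5* (chr7:16781340-16798274), the glutamine carrier ASCT2, was at 92.4 and 73.4 CPM at 0 µM, 84.8 and 115 CPM at 2.5 µM, 93.8 and 99.8 CPM at 5 µM, 105 and 112 CPM at 7.5 µM, and 121 and 122 CPM at 10 µM. The untreated range overlapped that at 2.5 µM only, and the change was 0.45 ± 0.15 (log2 per 10 µM, adjusted p = 0.0448).

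*Slc7a3* (chrX:101079210-101086020), which encodes CAT3, a further importer of cationic amino acids, moved the other way from *Slc7a1*. Its levels were 70.7 and 76.6 CPM at 0 µM, 44.5 and 35.8 CPM at 2.5 µM, 37.8 and 41.8 CPM at 5 µM, 36.3 and 38.0 CPM at 7.5 µM, and 58.8 and 39.9 CPM at 10 µM. Both untreated libraries were above all 8 treated ones, with no further decrease past 2.5 µM. The fitted trend was -0.83 ± 0.23 (log2 per 10 µM, adjusted p = 0.0159), and the difference of 2.5 µM from 0 µM was -0.88 ± 0.21 (log2, adjusted p = 0.0116). *Asns* and *Slc7a3* were the members called at 2.5 µM, 1 higher and 1 lower of 30 tested beside 2.32% of all genes (1.28% higher and 1.04% lower).

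*Slc38a2* (ENSMUSG00000022462.6, chr15:96687392-96699730) encodes SNAT2, a sodium-coupled carrier of neutral amino acids that cells induce on amino acid shortage. It was at 197 and 140.3 CPM at 0 µM, 141 and 124 CPM at 2.5 µM, 112 and 132 CPM at 5 µM, 120.4 and 127 CPM at 7.5 µM, and 114 and 121 CPM at 10 µM. The lower untreated library lay within the range at 2.5 µM, and the trend was -0.50 ± 0.15 (log2 per 10 µM, adjusted p = 0.0238). *Pycr1* (chr11:120635712-120643769), which catalyses the last step of proline synthesis, was at 49.5 and 56.4 CPM at 0 µM, 33.1 and 35.8 CPM at 2.5 µM, 24.7 and 32.2 CPM at 5 µM, 39.2 and 30.5 CPM at 7.5 µM, and 42.5 and 27.9 CPM at 10 µM. Both untreated libraries were above every treated one, and the trend was -0.70 ± 0.23 (log2 per 10 µM, adjusted p = 0.0455).

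**Figure D2:**
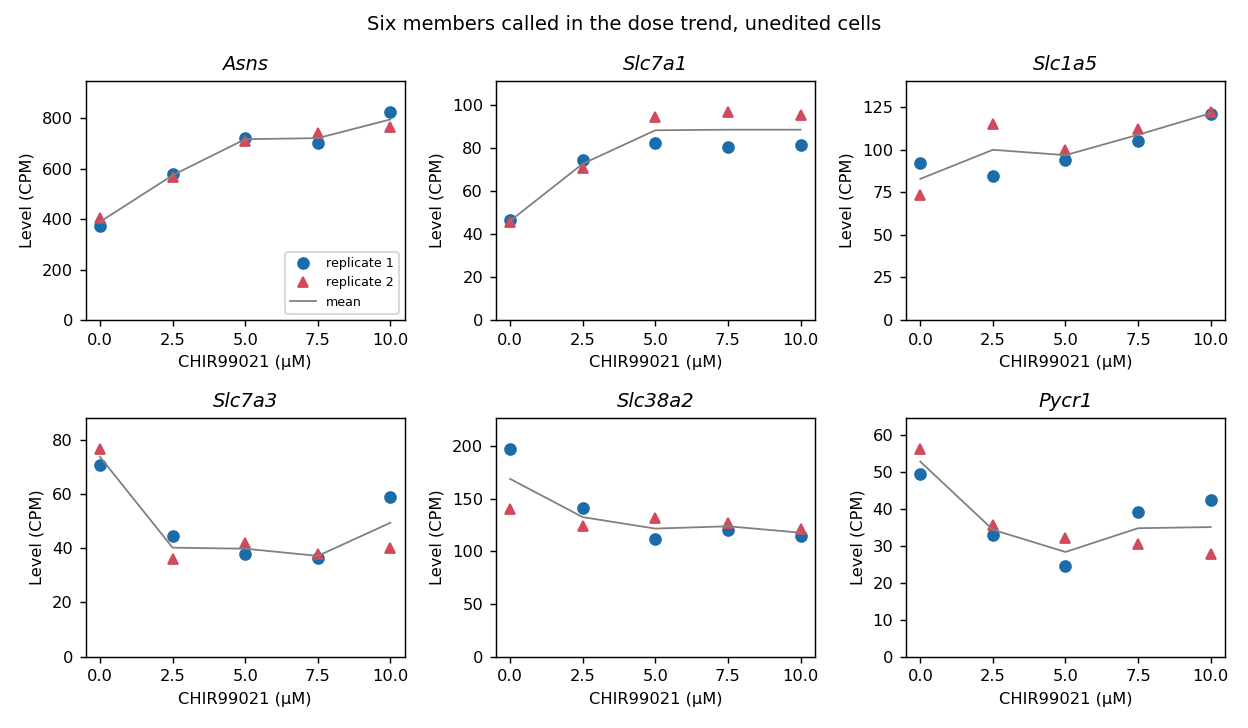
Levels in CPM (vertical axis, from 0) of the 6 members called in the dose trend against the CHIR99021 dose in µM (horizontal axis); circles and triangles are replicates 1 and 2 and the line joins the means of 2 libraries. *Asns* climbs from 372 and 406 CPM to 823 and 766 CPM, whereas *Slc7a3* drops between 0 and 2.5 µM and stays below both untreated levels at every higher dose.

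The rest of the program did not pass the test across doses. *Atf4* itself was at 97.1 to 149 CPM over the 10 libraries (0.021 per µM on the log2 scale, adjusted p = 0.42). *Atf5*, a related factor, was at 6.52 and 4.25 CPM at 0 µM 16.5 and 10.6 CPM at 5 µM and 3.27 and 12.1 CPM at 10 µM, with a fitted change of 1.20 ± 0.44 (log2 per 10 µM, adjusted p = 0.0745). *Vldlr*, the very low density lipoprotein receptor, had 1.09 ± 0.38 (adjusted p = 0.0533) and was at 0 CPM in the shallowest library, beside 27.1 CPM in the other at 10 µM. At 10 µM against no inhibitor, 3 of 30 members tested were higher (*Asns*, *Slc7a1* and *Slc1a5*) and 2 lower (*Slc38a2* and *Slc7a3*), beside 10.1% of all genes (4.97% higher and 5.1% lower). *Slc7a1* differed by 1.00 ± 0.20 (log2, adjusted p = 0.000399) between these doses. The cystine carrier *Slc7a11* was at 0 to 1.65 CPM in every library of the series, which is about the reach of a zero count, and was not tested in any comparison.

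Leaving out replicate 1 at 0 µM left 1 member higher (*Asns*) and 0 lower of 29, with 6 members at an unadjusted p under 0.05. DESeq2 called 2 members higher (*Asns* and *Slc7a1*) and 0 lower, with 9 at an unadjusted p under 0.05, and among the libraries from 2.5 to 10 µM edgeR called 0 members, with 1 at an unadjusted p under 0.05. Over 7 other settings and 10 fits with 1 library left out, the call of *Slc1a5* was kept in 1 and 2 and that of *Pycr1* in 2 and 5. Neither was called with a block for the mitochondrial share, nor in the 6 libraries above 0.8% mitochondrial counts. For single doses, 0 members were called at 2.5 µM without replicate 1 at 0 µM (7 at an unadjusted p under 0.05), and 1 higher and 0 lower at 10 µM without its replicate 2 (4 at an unadjusted p under 0.05).

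In the clones, levels were related to the mutation effect score (MES), which the study assigned to each substitution from the sorting of a library of edited cells by a fluorescent β-catenin reporter. A larger score stands for a stronger effect on the reporter. All 6 enzymes of amino acid synthesis rose with MES, as did *Shmt2* and *Mthfd1l* of the mitochondrial one-carbon pathway, the transporters *Slc7a1* and *Slc1a5* and the stress regulator *Nupr1*. *Slc38a2* fell. Of 29 members tested, 11 were higher and 1 lower, beside 22.9% of all 10145 genes tested that changed, 9.91% higher and 13% lower. The median fitted change was 0.27 (log2 per 10000 score units) over the members and 0.0025 over all genes, and 27 of the 29 members had a positive value.

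*Asns* in the clones was at 1056 CPM in S37A, 957 in S37C, 966 and 1005 in the S37F clones G1 and H2, and 1243 in S37Y. At codon 41 it was at 945 and 1028 CPM in the T41A clones, 950.2 and 849.5 in the T41I clones, 365 in T41N and 338 in T41S, and at codon 45 at 333 in S45C, 915 and 883 in the S45F clones and 453 in S45P. Hence 4 clones lay at 333 to 453 CPM and the other 11 at 849.5 to 1243 CPM, with a gap between them. Untreated unedited cells, at 372 and 406 CPM, lay within the range of the 4 lower clones. The β-catenin target *Axin2* was at 22.6 to 42.4 CPM in these 4 clones and at 22.9 to 87.4 CPM in the other 11, with overlap. In the S45F clones it was at 30.1 and 22.9 CPM. The fitted change of *Asns* was 0.65 ± 0.10 (log2 per 10000 score units, adjusted p = 0.00012).

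The serine pathway starts with *Phgdh*, goes on with *Psat1* and ends with *Psph*. *Psat1* ranged from 246 CPM in T41S through a median of 587 to 927 CPM in S45F clone C1, with a change of 0.46 ± 0.12 (adjusted p = 0.00898). *Psph* ranged from 48.6 CPM in T41S through a median of 134 to 165 CPM in S45F clone C1, with 0.50 ± 0.10 (adjusted p = 0.000752). *Phgdh* ranged from 34.3 CPM in T41N through a median of 79.1 to 106 CPM in S37A, with 0.25 ± 0.09 (adjusted p = 0.0406). For *Psat1* and *Psph* the 4 lowest clones were those that were lowest in *Asns*; for *Phgdh* they were not all the same.

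For proline, *Aldh18a1* makes the first intermediate from glutamate and *Pycr1* the final product. *Aldh18a1* ranged from 7.54 CPM in S45C through a median of 31.7 to 60.2 CPM in S45F clone C1, with a change of 0.48 ± 0.16 (adjusted p = 0.0378). *Pycr1* ranged from 9.04 CPM in T41S through a median of 37.9 to 50.3 CPM in T41A clone C1, with 0.65 ± 0.14 (adjusted p = 0.00207). It thus rose with MES in the clones and fell with dose in the unedited cells, and the difference between the 2 trends was not tested.

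*Shmt2* splits serine into glycine and a one-carbon unit in mitochondria. It ranged from 96.6 CPM in T41S through a median of 226 to 328 CPM in T41I clone A6, with a change of 0.44 ± 0.09 (adjusted p = 0.00119). *Mthfd1l*, which releases formate from mitochondria, ranged from 83.0 CPM in T41S through a median of 146 to 217 CPM in T41I clone A6, with 0.26 ± 0.09 (adjusted p = 0.0396). *Mthfd2*, the dehydrogenase between them, ranged from 54.8 to 242 CPM and had 0.34 (adjusted p = 0.109).

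*Slc7a1* in the clones was at 244 CPM in S37A, 236 in S37C, 299 and 273 in the S37F clones G1 and H2, and 273 in S37Y. At codon 41 it was at 192 and 175 CPM in the T41A clones, 258 and 143 in the T41I clones A6 and B9, 107 in T41N and 92.1 in T41S, and at codon 45 at 55.8 in S45C, 175 and 161 in the S45F clones C1 and D9 and 110.5 in S45P. All 5 codon 37 clones were above all 4 codon 45 clones, and codon 41 reached into both ranges. The change was 0.68 ± 0.10 (log2 per 10000 score units, adjusted p = 4.05e-05). *Slc1a5* ranged from 27.7 CPM in T41S through a median of 90.9 to 131 CPM in S45F clone C1, with 0.52 ± 0.13 (adjusted p = 0.00564).

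*Slc38a2* was at 199 CPM in S37A, 233 in S37C, 232 and 225 in the S37F clones and 244 in S37Y. At codon 41 it was at 227 and 201 CPM in the T41A clones, 285 and 216 in the T41I clones, 428 in T41N and 407 in T41S, and at codon 45 at 548 in S45C, 399.8 and 324 in the S45F clones and 346 in S45P. Here the codon 37 clones were all below the codon 45 clones, the reverse of *Slc7a1*. The change was -0.45 ± 0.07 (log2 per 10000 score units, adjusted p = 3.86e-05). *Nupr1*, a small chromatin protein induced by many stresses, ranged from 2.02 CPM in T41N through a median of 11.9 to 52.3 CPM in S37F clone H2, with 0.84 ± 0.28 (adjusted p = 0.0345).

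The other regulators did not pass the test with MES. *Atf4* had 0.19 (log2 per 10000 score units, adjusted p = 0.393), *Trib3*, a pseudokinase that restrains ATF4, 0.48 (adjusted p = 0.21), and *Ddit3*, the death-promoting factor CHOP, 0.18 (adjusted p = 0.608). *Cebpb*, a binding partner of ATF4, had -0.36 (adjusted p = 0.078), and *Eif4ebp1*, a brake on cap-dependent translation, 0.14 (adjusted p = 0.0634). The heavy chain *Slc3a2* and its light chain *Slc7a5*, which together import large neutral amino acids, had 0.19 (adjusted p = 0.167) and 0.27 (adjusted p = 0.0857).

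**Figure D3:**
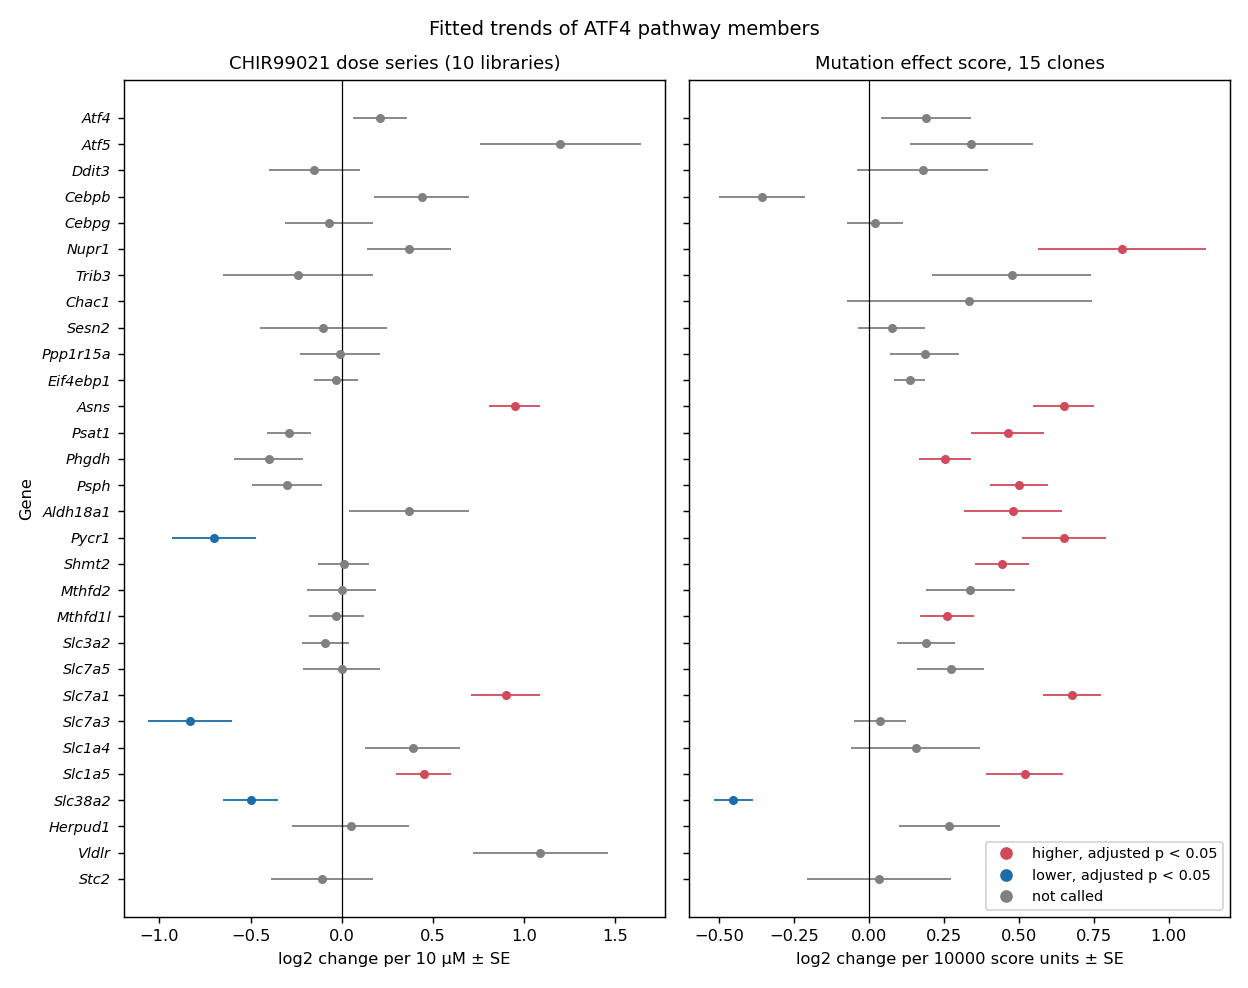
Fitted log2 changes (horizontal axis) of the members tested, with bars of 1 SE, per 10 µM of CHIR99021 in 10 libraries of unedited cells (left) and per 10000 units of the mutation effect score in 15 clones (right); red and blue mark higher and lower at adjusted p under 0.05. The synthesis enzymes from *Asns* to *Pycr1* are all red on the right, while on the left *Asns* is the one called higher and *Pycr1* is called lower.

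The 4 clones lowest in *Asns*, S45C, T41S, T41N and S45P, weighed on most of these trends. Singled out after the values were seen, they were also the 4 lowest of 15 in 8 other members (*Psat1*, *Psph*, *Aldh18a1*, *Pycr1*, *Shmt2*, *Slc7a1*, *Slc1a5* and *Nupr1*), an arrangement found for 3.37% of all genes tested. They were the 4 highest in 0 members, beside 3.85% of all genes. They also had the 4 lowest summed levels of the ES cell markers (1823 to 3630 CPM, others 4183 to 5471 CPM) and the 4 highest of 5 fibroblast markers (18.6 to 155 CPM, others 4.13 to 15.8 CPM). Of the fibroblast markers only *Col1a1* parted the clones, at 14.6 to 126 CPM in the 4 and at 0 to 6.91 CPM in the others. *Col1a2*, *Thy1*, *Dcn* and *Lum* overlapped, as did the ES cell markers *Pou5f1*, *Nanog* and *Sox2*. The unedited cells of the dose series had 13.8 to 64.7 CPM of *Col1a1*. Of 5 neural markers, 2 were tested for MES and 2 fell, beside 13% of all genes that were lower. *Tubb3* was at 68.6 to 116 CPM in the 4 clones and at 15.6 to 83.5 CPM in the others. *Pax6* was at 3.39 to 22.6 CPM in the 4 and at 0 to 15.1 CPM in the others. The part of these marker levels in the MES trend was not tested. The study found T41S well tolerated and T41N weaker in activation, so a fit without these clones also gives up low scores. What this narrower range of scores does to the calls was not tested. In the 11 other clones edgeR called 0 of 10009 genes and 0 of 29 members, with 845 genes and 2 members at an unadjusted p under 0.05. There *Asns* had 0.06 (adjusted p = 0.919), while *Slc7a1* lost its call with 0.42 (adjusted p = 0.471) and so did *Slc38a2* with -0.38 (adjusted p = 0.416), values nearer to those over all 15 clones. Leaving out T41S alone left 5 members higher and 1 lower, and leaving out S45C, T41N or S37F clone G1 left 6, 7 and 7 higher. Over 10 other settings and 15 fits with 1 clone left out, the call of *Phgdh* was kept in 5 and 8. Those of *Aldh18a1* and *Nupr1* were kept in 6 and 9, and that of *Mthfd1l* in 6 and 10. With counts summed per mutation, 12 of 30 members tested were higher and 2 lower, beside 1110 and 1428 of 10796 genes. *Phgdh* was not called there. With the rank of MES, 8 members were higher and 1 lower, with 13 at an unadjusted p under 0.05.

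The labels also sort the clones by codon. Codon 37 differed from codon 45 in *Slc7a1*, higher by 1.07 ± 0.29 (log2, SE, n = 5 and 4 clones, edgeR adjusted p = 0.049), and in *Slc38a2*, lower with -0.80 ± 0.21 (edgeR adjusted p = 0.0452), using the values given above. These were 2 of 29 members tested, beside 3.14% of all genes (1.45% higher and 1.7% lower). With 1 clone left out, *Slc7a1* kept its call in 3 and *Slc38a2* in 5 of 15 fits, and without S37A 0 members were called, with 3 at an unadjusted p under 0.05. Between codons 41 and 45, edgeR called 0 members with 2 at an unadjusted p under 0.05, DESeq2 called 0 as well, and the background was 0.0197% of all genes.

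**Figure D4:**
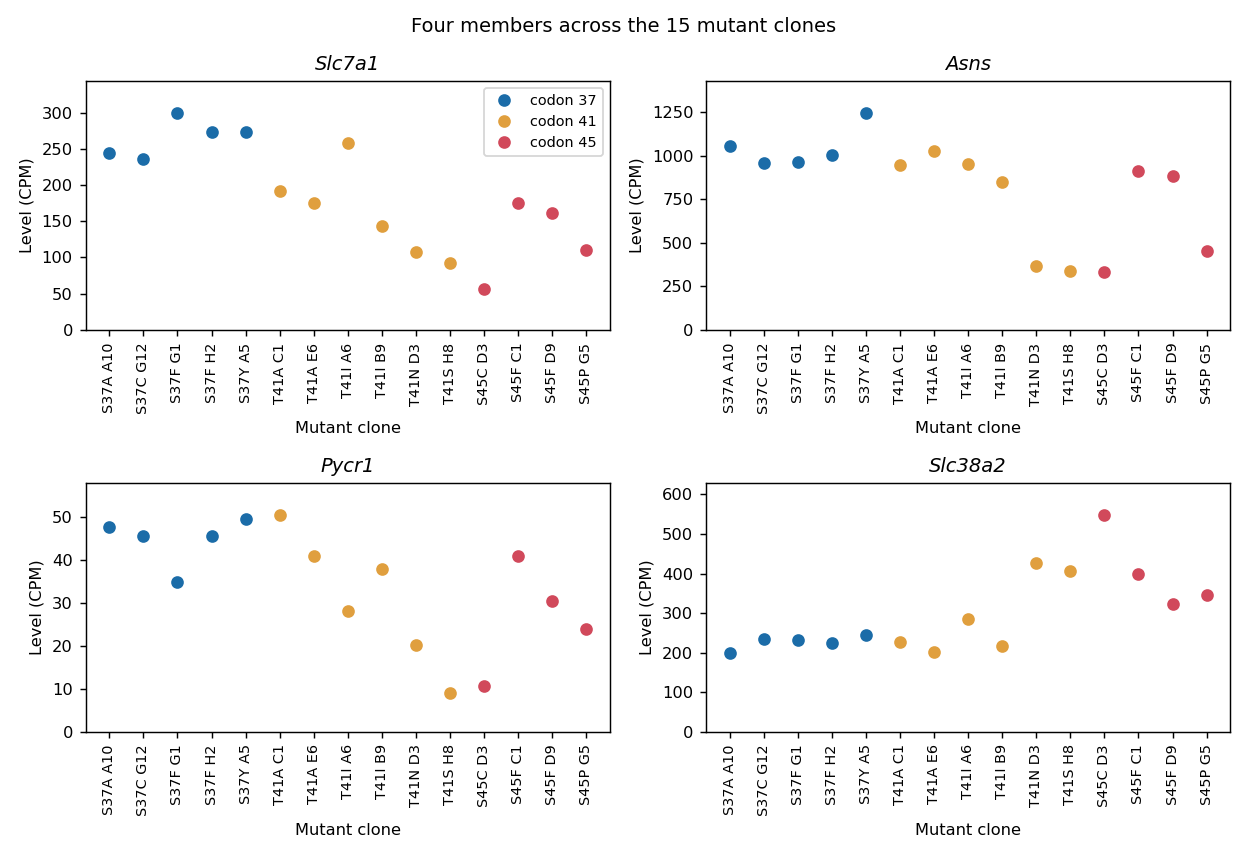
Levels in CPM (vertical axis, from 0) of *Slc7a1*, *Asns*, *Pycr1* and *Slc38a2* in each of the 15 clones (horizontal axis), coloured by codon. The codon 37 clones lie above the codon 45 clones for *Slc7a1* and below them for *Slc38a2*, and S45C, T41S, T41N and S45P are lowest for *Asns* and *Pycr1*.

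Compared with unedited cells without inhibitor, the clones had more RNA of the transporters *Slc7a1*, *Slc7a5* and *Slc7a3* and of *Mthfd2*, and less of *Ddit3* and *Vldlr*. These were 4 higher and 2 lower of 31 members tested, beside 19.7% of all genes (9.94% higher and 9.74% lower). *Slc7a5* was at 42.4 and 40.4 CPM in the untreated unedited libraries, below all clones, which ranged from 51.4 CPM through a median of 102 to 163 CPM (1.25 ± 0.33, log2, adjusted p = 0.012). *Slc7a3* was at 70.7 and 76.6 CPM beside 93.8 to 191 CPM, again without overlap (0.87 ± 0.22, adjusted p = 0.00945). *Ddit3* was at 41.9 and 47.8 CPM beside 6.66 to 47.7 CPM, where S45F clone C1 alone reached the unedited range (-1.41 ± 0.44, adjusted p = 0.0288). *Slc7a1* had 2.01 ± 0.50 (adjusted p = 0.00851) and *Mthfd2* 1.29 ± 0.43 (adjusted p = 0.0382). *Vldlr* was at 9.78 and 14.9 CPM beside 1.33 to 9.59 CPM in the clones, which is about the reach of a zero count. Its call was lost without the filter on low counts. *Slc7a3* was higher in the clones but lower with inhibitor, while *Slc7a1* was higher in both, and the comparisons share the untreated libraries. Leaving out untreated replicate 1 or 2 left 0 members called, with 10 and 4 at an unadjusted p under 0.05, and the effects of targeting, cloning and culture cannot be told apart from those of mutation here.

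Across clones the members also varied along a further axis that crossed the codons. *Chac1*, which degrades glutathione and is a target of ATF4, was high in 5 clones and low in the rest. It was at 26.2 CPM in S37F clone H2, 43.1 in S45F clone D9, 47.1 in S37F clone G1, 54.3 in T41I clone A6 and 58.4 in S45F clone C1, and at 1.49 to 10.6 CPM in the other 10 clones. The 10 libraries of the dose series had 3.77 to 11.5 CPM. *Chac1* and the genes named in the next paragraphs were singled out after their values were seen, so the levels are a description.

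The 5 clones, defined by *Chac1*, also held the 5 highest levels of 6 other members (*Trib3*, *Nupr1*, *Slc1a4*, *Slc3a2*, *Herpud1* and *Mthfd2*), whereas 0.996% of all 10145 genes tested had their 5 highest levels there. *Trib3* was at 28.3 to 49.1 CPM in them and at 4.04 to 16.8 CPM in the others. *Slc1a4*, the carrier ASCT1 of serine and alanine, was at 39.4 to 63.4 CPM in them and at 12.6 to 26.5 CPM in the others. *Herpud1*, which acts in ER-associated degradation, was at 25.6 to 37.0 CPM in them and at 7.54 to 21.0 CPM in the others. *Slc3a2* was at 368 to 464 CPM in them and at 232 to 286 CPM in the others, so the ranges did not overlap although the fold was smaller. *Nupr1* was at 32.1 to 52.3 CPM in the 5 clones and at 2.02 to 21.6 CPM in the others. The dose series had 24.7 to 45.7 CPM of it, so the other clones lay below unedited cells and the 5 overlapped them.

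*Atf4* mRNA had 4 of its 5 highest levels in these clones. It was at 348, 367, 328 and 365 CPM in S37F clone G1, S45F clone C1, S45F clone D9 and T41I clone A6, but at 175 CPM in S37F clone H2, within the 121 to 211 CPM of the other 10. *Ddit3*, *Stc2* (a secreted glycoprotein hormone), *Psat1*, *Phgdh*, *Aldh18a1*, *Shmt2*, *Mthfd1l*, *Slc1a5*, *Slc7a5* and *Eif4ebp1* likewise shared 4 of the 5, although *Phgdh* also had 1 of its 5 lowest levels there. In all, 17 of the 28 other members tested for MES had at least 4 of their 5 highest levels in these clones, beside 6.78% of all genes. *Atf5* went the other way, with a Spearman rho with *Chac1* of -0.60 over the 15 clones. The members' median rho with *Chac1* was 0.496, with 25 of 31 positive, beside -0.007 over all genes tested. Nothing states with which batch each clone was grown, and its part in these values was not tested.

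*Asns* was not part of this axis. Its rho with *Chac1* over the 15 clones was -0.175, and its nearest members were *Slc7a1* (0.879), *Pycr1* (0.80), *Phgdh* (0.675) and *Psph* (0.664), with *Slc38a2* at -0.746. Over the 10 dose libraries *Slc7a1* was again its nearest member (0.842), followed by *Slc1a5* (0.709) and *Slc1a4* (0.697), and *Slc38a2* was at -0.697. *Phgdh* (-0.77), *Pycr1* (-0.576) and *Psph* (-0.273) had the opposite sign there, so *Slc7a1* was the one of the 4 nearest in the clones that kept its sign.

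**Figure D5:**
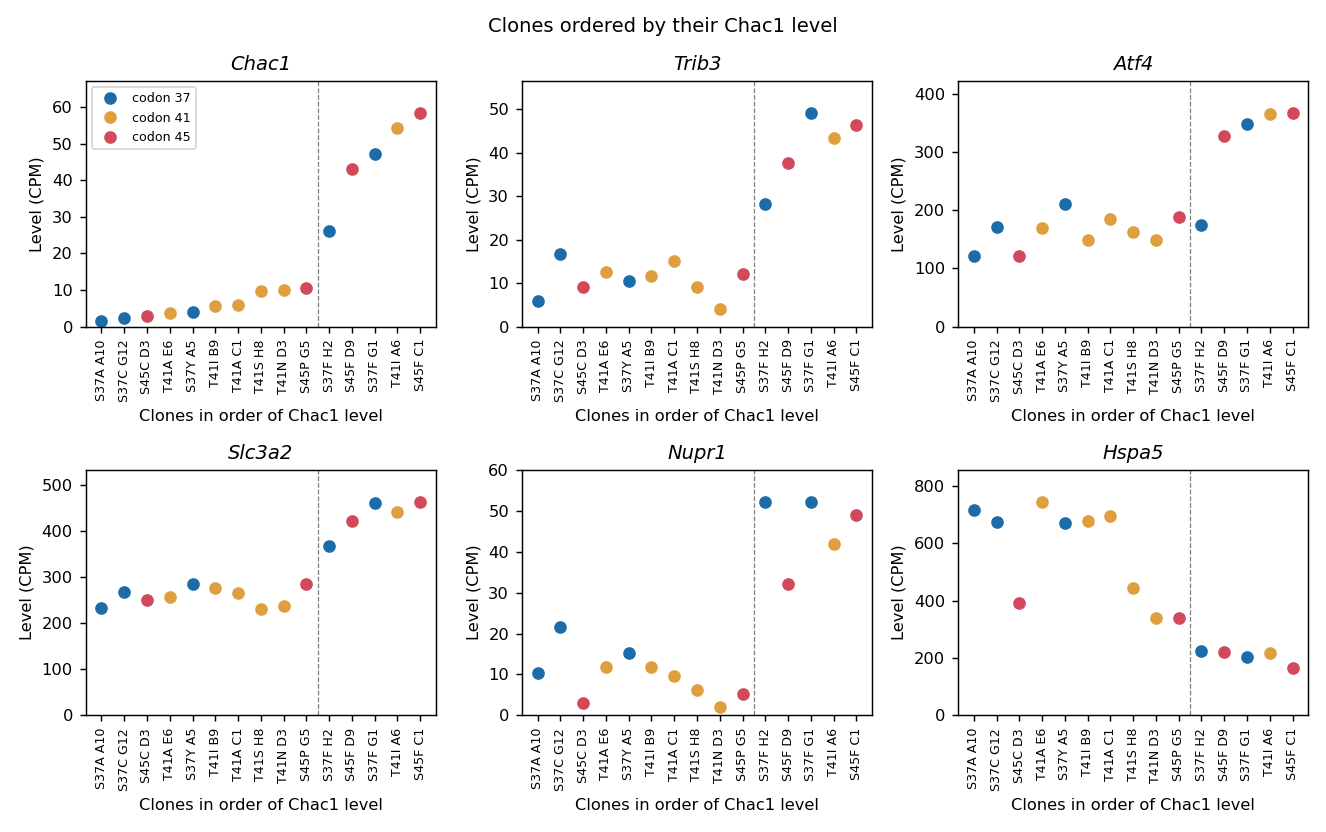
Levels in CPM (vertical axis, from 0) of *Chac1*, *Trib3*, *Atf4*, *Slc3a2*, *Nupr1* and the ER chaperone *Hspa5* in the 15 clones (horizontal axis, ordered by *Chac1*, coloured by codon; the dashed line sets off the 5 highest). *Trib3*, *Slc3a2* and *Nupr1* are highest in the 5 clones at the right, where *Hspa5* is lowest, at 166 to 224 CPM.

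The ER chaperones ran opposite to this axis. Of 17 genes of the ER unfolded protein response, 7 had their 5 lowest levels in the clones with the 5 highest *Chac1* levels (*Hspa5*, *Pdia6*, *Hsp90b1*, *Calr*, *Manf*, *Dnajb11* and *Dnajc3*), an arrangement found for 0.769% of all genes tested. *Hspa5*, the main ER chaperone BiP, was at 166 to 224 CPM in them and at 341 to 745 CPM in the others, with a rho with *Chac1* of -0.879. The dose series had 149.9 to 257 CPM, and the untreated libraries 204 and 257 CPM, so the 10 other clones lay above unedited cells and the 5 within their range. *Pdia6*, a protein disulphide isomerase, was at 225 to 324 CPM and at 327 to 494 CPM. The list as a whole summed to 1931 to 2459 CPM in them and to 2988 to 4620 CPM in the others, and its median rho with *Chac1* was -0.604. Mitochondrial share (1.53 to 2.27%, others 1.61 to 2.52%) and total counts (977644 to 1873255, others 495616 to 2025273) overlapped.

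Clones of 1 mutation could lie apart on this axis. Both S37F and both S45F clones had high *Chac1*, but of the T41I clones A6 was at 54.3 CPM and B9 at 5.51 CPM. Between these sister clones 7 of 29 members with at least 10 counts differed over 2-fold, with a median ratio of 1.365 and a largest of 9.851 (*Chac1*), beside 8.53% of all genes with as many counts. The S45F clones had 4 of 30 members over 2-fold with a median ratio of 1.29, beside 6.84% of all genes. The S37F clones had 1 of 29 with 1.139 (7.5% of all genes), and the T41A clones 2 of 30 with 1.112 (5.33% of all genes). *Hspa5* was at 216 CPM in T41I clone A6 and at 678 CPM in B9, so that members and chaperones parted between clones of 1 mutation. No sister pair has a replicate library of either clone.

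Over all 7 comparisons 17 members were called in at least 1 and 15 in none, beside 43.6% of all genes tested in any of them that were called. The 15 were *Atf4*, *Atf5*, *Atf3*, *Cebpb*, *Cebpg*, *Trib3*, *Chac1*, *Sesn2*, *Ppp1r15a*, *Eif4ebp1*, *Slc7a11*, *Slc3a2*, *Slc1a4*, *Herpud1* and *Stc2*. *Sesn2*, a leucine sensor, stayed at 9.57 to 36.4 CPM over the 25 libraries, *Cebpg*, a binding partner of ATF4, at 21.3 to 51.2 CPM and *Ppp1r15a*, the phosphatase subunit that reverses eIF2 phosphorylation, at 12.1 to 45.7 CPM. *Atf3*, a later factor of the response, was at 0.744 to 9.21 CPM apart from 21.5 CPM in T41S. *Ddit3*, *Shmt2*, *Psph*, *Atf5* and *Cebpb* overlap a gene on the other strand, and reads of such pairs may not be told apart because the strand setting is not stated. *Asns* and *Mthfd2* lie on chromosome 6, whose median level in S45F clone D9 was shifted by 0.45 (log2) from the other clones. In that clone *Asns* was at 883 CPM and *Mthfd2* at 215 CPM, and neither level is corrected for the shift. Its part in placing this clone among the 11 higher in *Asns*, or among the 5 highest in *Mthfd2*, was not tested.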

How the data were processed

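The deposited table holds deduplicated counts by gene from mcSCRB-seq libraries, deposited by the authors without normalization. The submitters' processing notes name FastQC 0.73, UMI-tools, Picard, bedtools 2.30.0 and featureCounts 2.0.1 with mm10. The annotation release and the strand setting are not given in the sources used here. Molecular barcodes sit at the 3′ end, so levels were not compared between genes. Of 48440 genes, 48058 were matched to annotation and 24146 had no count.

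Counts were tested in edgeR 4.0.16 (R 4.3.3; quasi-likelihood test after TMM scaling; genes kept by filterByExpr at a count of 10; Benjamini-Hochberg over all genes tested, called at 0.05) in 7 comparisons. These were dose as a number, 2.5 and 10 against 0 µM with dose as a factor, MES per 10000 units, codon as a factor (37 and 41 against 45), and clones against untreated cells. Per-mutation MES came from the study's source data, and unedited cells have none. Alternatives were RLE scaling, DESeq2 1.42.0, no filter, replicate and mitochondrial-share blocks, fewer doses, other MES codings, and each library left out. Correlations used log2(CPM + 1). The scripts were tested on simulated counts. Members called in the dose, MES or codon comparisons are given per library or by their lowest, median and highest clone, and from each other list for at most 3 genes in each direction. Members and lists were chosen with earlier results of these data known. Promoters came from RefSeq (GRCm38.p6).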

Additional observations from a re-analysis of the deposited data

Results flagged for a closer look

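Within codon groups of 4 to 6 clones, 11 of 91 sets of member levels had 1 clone far from the rest (Dixon's criterion at the 95% level). Chance gives about 1 in 20 for independent sets. These sets share the same clones and the members vary together, so the count cannot be read against that rate. T41I clone A6 was far above the other codon 41 clones in 6 members, at 365 CPM for *Atf4*, 54.3 CPM for *Chac1*, 41.9 CPM for *Nupr1*, 55.9 CPM for *Slc1a4*, 441 CPM for *Slc3a2* and 43.4 CPM for *Trib3*. The next highest clones had 186, 10.1, 11.9, 26.5 and 277 CPM for the first 5 of these. T41S clone H8 stood apart in *Atf3*, at 21.5 CPM beside 4.79 CPM in the next. At codon 37, S37F clone G1 was lowest in *Pycr1* at 34.8 CPM, S37Y clone A5 was lowest in *Sesn2* at 20.2 CPM, and S37F clone H2 was highest in *Stc2* at 26.2 CPM. At codon 45, S45F clone C1 was highest in *Phgdh* at 99.2 CPM, beside 65.1 CPM in the next.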

How the results depend on the processing

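Each clone was 1 library, and each dose had 2. In the dose trend, 121 genes were called over 2.5 to 10 µM alone, with 0 members higher and 0 lower (*Slc7a3* turned to 0.009, log2 per µM), and DESeq2 called 0 members lower. At 2.5 µM, DESeq2 called 86 genes and 0 members lower, and a block by mitochondrial share gave 545 genes and 2 members higher. At 10 µM, DESeq2 called 359 genes and 0 members lower. For MES, chosen after seeing the data, 13 clones without T41S and S45C gave 385 genes and 1 member higher, and 11 clones, also without T41N and S45P, gave 0 genes, 0 members higher and 0 lower (845 genes and 2 members at an unadjusted p under 0.05). In those 11 clones *Aldh18a1* (-0.004), *Mthfd1l* (-0.015), *Psat1* (-0.189) and *Slc1a5* (-0.018) changed sign. Codon as a factor beside MES gave 17 members higher and 2 lower, and 2 were lower without a filter or with counts summed per mutation. DESeq2 called 561 genes for codon 37 and 23 for codon 41 against 45, where no filter gave 9. Without a filter 1 member (*Ddit3*) was lower in clones than in untreated cells, and *Vldlr* lost its call.

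Replicate numbers did not pair the libraries: correlations of same-numbered deviations were -0.133 to 0.116 between doses and -0.175 to 0.132 between mutations. With the replicate number as a block, edgeR called 1140 genes in the dose trend, with 2 members higher and 2 lower, 1 member lower at 10 µM, and 2227 genes with 7 members higher for MES.

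With 1 library left out, the genes called ranged from 527 to 1325 for dose (members higher 1 to 4, lower 0 to 3), from 71 to 273 at 2.5 µM (0 to 1 and 0 to 1) and from 260 to 1167 at 10 µM (1 to 3 and 0 to 2). They ranged from 1199 to 2388 for MES (5 to 14 and 1 to 2), from 101 to 694 for codon 37 (0 to 1 and 0 to 2), from 1 to 7 for codon 41 (0 and 0), and from 386 to 2667 for clones against untreated cells (0 to 7 and 0 to 2). The lowest came without 0 µM replicate 1 (527, 71 and 386), 10 µM replicate 2 (260), T41S (1199) and S45C (101).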

Other observations

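Lists of neighbouring pathways were counted in the dose trend beside the 12.5% of all genes called. Of 17 genes of the ER unfolded protein response, 0 rose and 6 fell with dose (median -0.0292, log2 per µM, beside 0.0008 over all genes), among them *Xbp1*, the main factor of that response (-0.072, edgeR adjusted p = 0.00907), the chaperone *Calr* (-0.070, adjusted p = 7.24e-05) and *Creld2* (-0.070, adjusted p = 0.00849). *Calr* was at 444 and 468 CPM at 0 µM and at 278 and 267 CPM at 10 µM, without overlap. Of 9 NRF2 targets, *Gclm* and *Gclc*, which encode the subunits of the enzyme that starts glutathione synthesis, fell (-0.107, adjusted p = 0.000119, and -0.056, adjusted p = 0.047). Of 7 mitochondrial stress genes, the cytokine *Gdf15* fell (-0.155, adjusted p = 0.0213) and was at 0 CPM in the shallowest library. Of 15 eIF2 kinase and eIF2 genes, *Eif2s2*, an eIF2 subunit, rose (0.036, adjusted p = 0.0375) and *Impact*, which restrains the eIF2 kinase GCN2, fell (-0.046, adjusted p = 0.0465). *Qars*, the glutaminyl-tRNA synthetase, rose as the 1 of 21 in its list (0.053, adjusted p = 0.00721).

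With MES, 22.9% of all genes tested changed, 9.91% higher and 13% lower. The shares called were 47.6% of the tRNA list, 42.9% of the mitochondrial stress list, 22.2% of the NRF2 list, 13.3% of the eIF2 list and 5.88% of the ER list. Of 21 genes for tRNA charging or export, 10 rose and 0 fell. They were led by *Cars* (0.52, log2 per 10000 score units, edgeR adjusted p = 0.00219), *Aars* (0.38, adjusted p = 0.00197) and *Nars* (0.37, adjusted p = 0.0094), the synthetases for cysteine, alanine and asparagine. For 9 of the 21 the 4 lowest clones were S45C, T41S, T41N and S45P, which were singled out as lowest in *Asns* after the values were seen. This arrangement was found for 3.37% of all genes tested. *Hyou1* rose as 1 of 17 genes of the ER list (0.37, adjusted p = 0.0186). *Eif2s2* (0.29, adjusted p = 0.00313) and *Eif2b4* (0.28, adjusted p = 0.0177) rose among eIF2 genes. Of the mitochondrial stress list the protease *Lonp1* (0.20, adjusted p = 0.0254) and the chaperone *Hspa9* (0.19, adjusted p = 0.00299) rose, and *Hspd1* fell (-0.14, adjusted p = 0.0292). Of the NRF2 list *Nfe2l2* itself rose (0.25, adjusted p = 0.0408) and *Txn1* fell (-0.16, adjusted p = 0.0317). In the 11 clones without these 4, edgeR called 0 of 10009 genes, with 845 at an unadjusted p under 0.05.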
